A study of Mus musculus with 2 samples.

Results

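The complement genes examined here were all non-control probes named Masp1, Masp2, C3, C2, Cfb, Cfd, C1s, Cd59a or Cd46 on 2 Agilent 1-colour whole mouse genome arrays, 18 probes of 9 genes out of 28781 genes on the array. The group was chosen by measured values of these arrays. Masp1 was selected on its large difference of processed signal between them and the other genes were added as its pathway, so every value below is a description and none is independent evidence. Both arrays measured N31, a mouse neural progenitor line of the 129/Ola strain that was derived from induced pluripotent stem cells. N31 carries Oct3/4, Sox2, Klf4 and c-Myc under the control of doxycycline. By the labels, one culture overexpressed the fluorescent protein EGFP and the other Pax6, a paired-box factor needed for eye and forebrain development. Each was driven by a CAG vector (CAG-EGFP-IP or CAG-Pax6-IP) brought in with the Tol2 transposon. RNA of both was taken 24 h after doxycycline, so the EGFP array is a doxycycline-treated control and no array of untreated cells was analysed here. The labels do not say whether each line is 1 clone or a pool of transfected cells. The brightest Pax6 probe read 557 in the EGFP line and 822 in the Pax6 line, a log2 difference of 0.35 ± 0.20 (1.27-fold). No source says if it reads the vector's transcript, so it checks neither the overexpression nor the labels. The comparison sets the Pax6 line beside the EGFP line at 24 h of doxycycline. Without untreated cells, a difference that existed before doxycycline cannot be told from a response to it. With 1 array of each line, other differences between the lines cannot be told from an effect of Pax6.

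Complement is a cascade of blood and tissue proteins that tags and lyses foreign or damaged cells. In the lectin pathway, mannose-binding lectins, ficolins and collectins bind sugars on a surface and carry the serine proteases encoded by Masp1 and Masp2. Masp1 activates Masp2, and Masp2, like C1s of the classical pathway, cleaves C4 and C2 to build an enzyme that splits C3, the protein on which all routes converge. Factor B (Cfb) and factor D (Cfd) build the corresponding enzyme of the alternative pathway. Cd46 and Cd59a encode membrane proteins that protect a cell from its own complement, the first by inactivating deposited fragments and the other by blocking the membrane attack complex. Most circulating complement is made by the liver, but glia, fibroblasts and other cells also make components, and in the developing nervous system complement takes part in synapse removal and cell migration. The Masp1 gene is known to give several products by alternative splicing.

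Each group was 1 array, so no difference could be checked in replicates or given a p-value, and the number of arrays limits the precision. The value after ± is the scanner software's own error of a signal, or that error carried to a log2 difference, and covers measurement on these arrays but not the variation between cultures. Signals are in arbitrary units, and differences are Pax6 minus EGFP on the log2 scale after dividing each array by its 75th percentile (854 in the EGFP line and 991 in the Pax6 line). A probe counts as measured when its spot was flagged well above background. Of the non-control spots, 64.7% and 67.2% were, and 0 were saturated. The brightest probe of a gene stands for it, and probe levels are not compared with one another because each probe binds with its own strength. Positions follow the array design, on build mm7. An mm7 annotation was not used here, and exons, introns and untranslated regions are therefore not stated.

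Masp1 was much higher on the Pax6 array, while the other members measured on both arrays were within 2-fold. Of the 9 genes, 5 were well above background on both arrays (Masp1, Masp2, C2, C3 and Cd59a), C1s was so on the Pax6 array only, and 3 (Cfb, Cfd and Cd46) were on neither. Of the 18 probes, 8 were measured on both arrays, 8 on neither and the remaining Masp1 and C1s probes on the Pax6 array only. A difference of at least 2-fold was reached by 1 of the 9 genes, Masp1, which was higher on the Pax6 array, and by 0 in the lower direction. Over all 19243 genes above background on at least 1 array, 4.78% passed 2-fold in either direction, 2.36% with the higher level on the Pax6 array and 2.42% with the lower. The group was formed from this same contrast, so nothing is read from its count. Its 6 genes with a value had a median difference of -0.02, beside -0.01 over all genes.

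**Figure D1:**
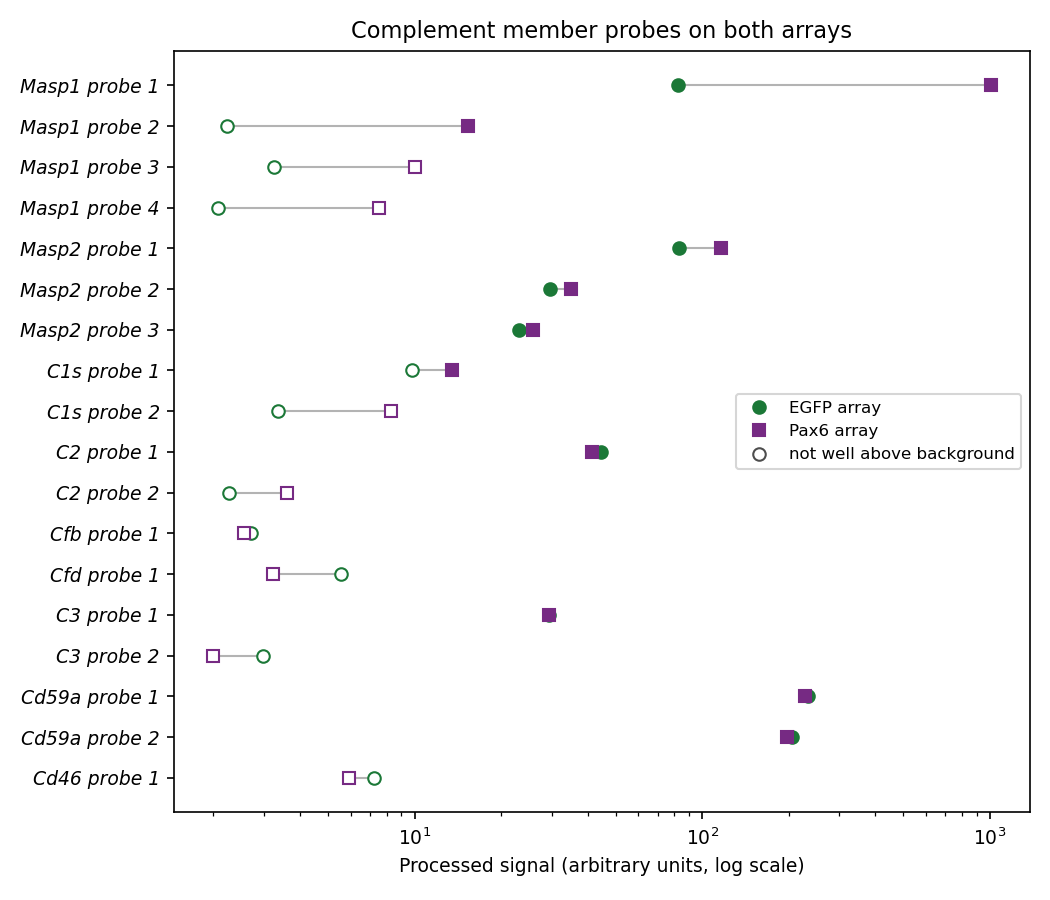
Processed signal (log axis, arbitrary units) of each of the 18 member probes on the EGFP array (circles) and the Pax6 array (squares), with open symbols where the spot was not well above background and a line joining the 2 values of a probe. Masp1 probe 1 read 82.6 and 1009, whereas the 2 symbols of the C2, C3 and Cd59a main probes nearly coincide.

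Masp1 encodes a serine protease that starts the lectin pathway and activates Masp2. Its main probe, at chromosome 16, 23127084 to 23127143 on the minus strand, read 82.6 ± 8.73 in the EGFP line and 1009 ± 101 in the Pax6 line. Both spots were above background and unsaturated. The log2 difference was 3.40 ± 0.21, a 10.5-fold higher level on the Pax6 array, and the difference was 16.2 times its measurement error. This probe had 1 spot per array, so its spot-to-spot spread is not known. Within the spot, the median pixel before background subtraction was 111 in the EGFP line and 877 in the Pax6 line, against a local background of 27.0 and 30.0, and the mean pixel was 110 and 915. Mean and median were close on both arrays. Of the 17831 genes measured on both arrays, 8280 were higher on the Pax6 array, and Masp1 ranked 6 among those by its difference.

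The other Masp1 probes gave little signal. The probe nearest the start of the gene, at chromosome 16, 23138373 to 23138432, read 2.23 ± 2.22 in the EGFP line, not well above background, and 15.3 ± 2.59 in the Pax6 line. It was therefore at least 1.28-fold higher there. This is a lower bound, and the difference as measured was 2.57 ± 1.46. The probe at 23110952 to 23111011 read 2.07 ± 2.07 and 7.53 ± 2.07, and the one at 23108101 to 23108160 read 3.26 ± 2.68 and 10.0 ± 2.53. Neither was well above background on either array, so no fold is given for them. All 4 probes had the higher reading on the Pax6 array, but for 3 of them at least 1 of the 2 readings lay in the range of background.

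The bright and the dim Masp1 probes were designed on different transcripts. Per the array's own annotation, the main probe comes from a cDNA of embryonic testis and the one nearest the start of the gene from a cDNA of newborn cerebellum, whereas the 2 probes that stayed dim on both arrays come from the RefSeq transcript of Masp1. In the direction of transcription the main probe lies 11.3 kb after the first, and the RefSeq probes lie 27.4 kb and 30.3 kb after that first probe. The sources used here do not say which splice product each probe reads. The 10.5-fold difference is thus a measurement of the transcript under 1 probe, and these arrays give no measured value for the RefSeq probes. Probe sequences were not used here.

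**Figure D2:**
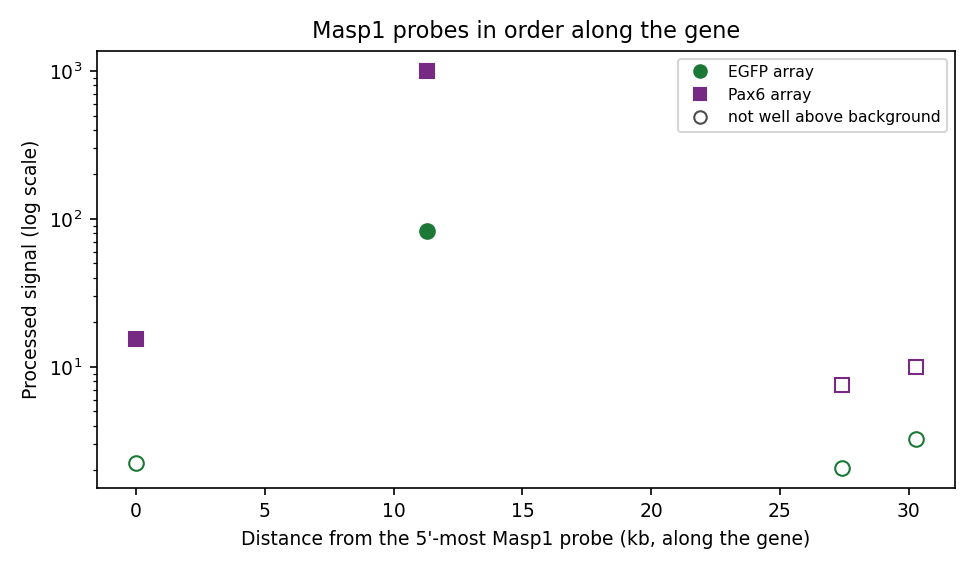
Signals of the 4 Masp1 probes (log axis) against their distance in kb from the probe nearest the start of the gene, on the EGFP array (circles) and the Pax6 array (squares), with open symbols where a spot was not well above background. The probe at 11.3 kb is the only one of the 4 with filled symbols on both arrays, and the probes at 27.4 kb and 30.3 kb have open symbols on both.

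Masp2, the gene of the protease that cleaves C4 and C2 in the lectin pathway, was within 2-fold at each of its 3 probes. The main probe, at chromosome 4, 147593862 to 147593921, read 82.9 ± 8.58 in the EGFP line and 116 ± 11.8 in the Pax6 line, a difference of 0.28 ± 0.21. A neighbouring probe at 147593232 to 147593291 read 23.1 ± 3.10 and 25.9 ± 3.23, a difference of -0.05 ± 0.26. The probe at 147604554 to 147604613, designed on another RefSeq transcript of the gene, read 29.5 ± 3.94 and 35.1 ± 4.28, a difference of 0.04 ± 0.26. The last 2 differences were smaller than their measurement error, and that of the main probe was 1.32 times it. The probes thus did not share a direction. Probes designed on each of the 2 transcripts were measured on both arrays, unlike those of Masp1. Which transcript each Masp2 probe reads was not determined.

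C1s encodes the protease of the classical pathway that does the work of Masp2 there, and its current symbol is C1s1. The brighter of its 2 probes, at chromosome 6, 124555678 to 124555737, read 9.83 ± 2.40 in the EGFP line, not well above background, and 13.5 ± 2.43 in the Pax6 line. This gives a lower bound of 1.13-fold, with the higher level on the Pax6 array. The difference as measured, 0.25 ± 0.44, was smaller than its error, so its direction is not resolved. The other probe, at 124556317 to 124556376, read 3.35 ± 3.33 and 8.26 ± 3.21 and was not well above background on either array. Mouse C1s1 has a close copy, C1s2, so the probes may read either gene. The C1s2 probe itself read 2.14 and 5.74, on neither array above background.

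The next group builds the enzymes that split C3. C2 was measured by 1 of its 2 probes, at chromosome 17, 32958754 to 32958813, with signals of 44.6 ± 5.28 in the EGFP line and 41.3 ± 4.87 in the Pax6 line and a difference of -0.32 ± 0.24. Its other probe, within 32959305 to 32959480, read 2.27 ± 2.27 and 3.60 ± 2.12. Cfb, the gene of factor B, read 2.71 ± 2.70 and 2.55 ± 2.54, as large as the errors themselves. Cfd, the gene of factor D or adipsin, a protease made mainly by fat cells, read 5.56 ± 2.28 and 3.23 ± 2.05. Neither Cfb nor Cfd was well above background, so no level or fold is given for the alternative pathway enzymes. C2 and Cfb lie next to each other in the major histocompatibility complex, and of this pair only C2 gave a measurable signal.

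C3, the central component, was close on both arrays. Its main probe, at chromosome 17, 55414567 to 55414626, was printed in 10 spots, of which 7 were kept because 3 carried an outlier flag on the EGFP array. The 7 spots ranged from 23.9 to 34.4 with a median of 29.8 in the EGFP line and from 22.6 to 32.9 with a median of 30.7 in the Pax6 line. The ranges of the spots overlapped almost fully. The mean difference after scaling was -0.22, with an SD of 0.17 over the 7 spots, and 6 of the 7 were below 0. With all 10 spots it was -0.27 with an SD of 0.23, and 9 of the 10 were below 0. Replicate spots share the RNA and the array, so their spread is that of the measurement. It was lower than the software's error for this probe, 0.26. The second C3 probe, within 55435522 to 55435679, read 2.96 ± 2.13 and 2.00 ± 1.99 and was not well above background on either array.

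**Figure D3:**
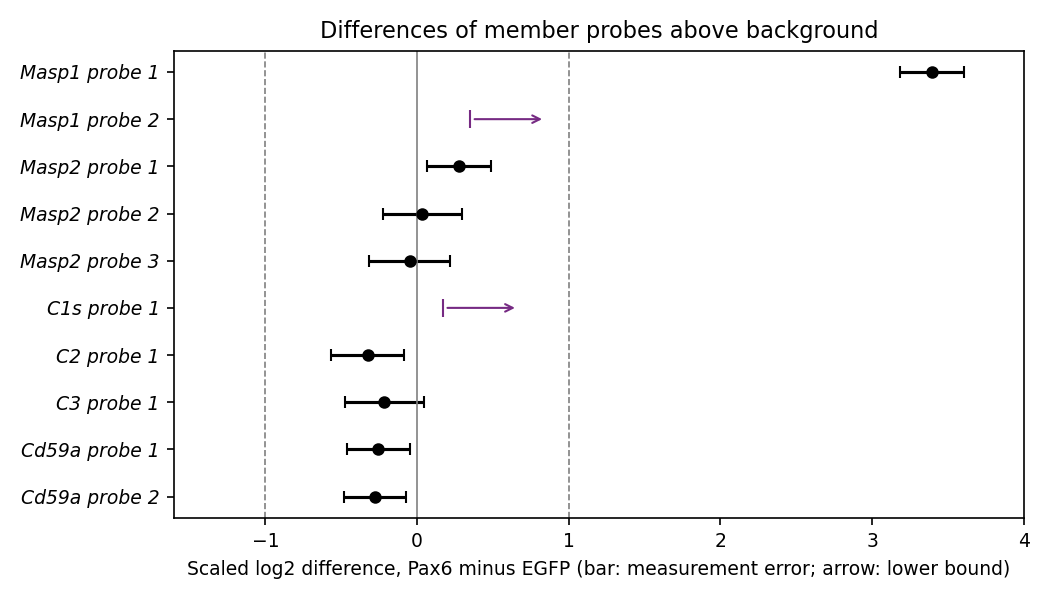
Log2 differences (Pax6 minus EGFP, scaled) of the 10 member probes well above background on at least 1 array, with the measurement error as bars, arrows starting at lower bounds where only the Pax6 array was above background, and dashed lines at 2-fold. Masp1 probe 1 sits at 3.40, and the 7 other probes measured on both arrays lie between -0.32 and 0.28.

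Of the membrane regulators, Cd59a was measured by 2 probes with closely matching values. The probe at chromosome 2, 103964800 to 103964859, read 234 ± 23.6 in the EGFP line and 227 ± 22.9 in the Pax6 line, a difference of -0.26 ± 0.21. The probe at 103965318 to 103965377 read 206 ± 20.7 and 197 ± 19.8, a difference of -0.28 ± 0.21. These differences were 1.24 and 1.35 times their errors. A related gene, Cd59b, lies next to Cd59a. Probe sequences were not compared, so the Cd59a probes may read both genes. The main Cd59b probe read 20.4 and 20.1, a difference of -0.24 ± 0.30. Cd46, whose product is found in mice mainly on sperm, read 7.22 ± 2.32 and 5.92 ± 2.09 and was not well above background on either array. Its neighbour Cr1l, the gene of the rodent regulator Crry that does much of the work of human CD46 on mouse cells, was well measured, with signals of 514 and 657 and a difference of 0.14 ± 0.20.

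The wider pathway was examined under 49 further gene names. Of these, 46 had a probe under that name (C1rb, C7 and Masp3 had none) and 22 were measured on both arrays. Masp3 names a product of the Masp1 gene rather than a further gene, so only the name lacks a probe. None of the 22 was higher by 2-fold or more on the Pax6 array, and 2, Colec12 and Serping1, were lower by as much, beside 2.36% higher and 2.42% lower over all genes. Their median was -0.08, with 10 above 0 and 12 below, beside -0.01 over all genes. Of the 7 genes of lectins, ficolins and collectins, 4 were on neither array above background (Mbl1, Mbl2, Fcnb and Colec10), and C1qa and C1qc of the classical pathway were not either. Fcna, a ficolin, read 24.2 and 15.7 with a difference of -0.84 ± 0.31, and Colec11, a collectin, read 14.0 and 11.5 with a difference of -0.49 ± 0.41. Colec12, a membrane collectin and scavenger receptor, was 3.18-fold lower on the Pax6 array, with signals of 104 and 38.0 and a difference of -1.67 ± 0.22, and its second probe differed by -1.75 ± 0.28. C1qb, a chain of C1q, differed by 0.04 ± 0.21.

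Serping1 encodes C1 inhibitor, the serpin that inactivates C1s, Masp1 and Masp2. Its signal was 122 in the EGFP line and 66.6 in the Pax6 line, a difference of -1.09 ± 0.21 or 2.13-fold lower on the Pax6 array, so the inhibitor and Masp1 differed in opposite directions. Of the 14 regulator genes, 8 were on neither array above background and 6 were measured. The measured ones other than Serping1 were within 2-fold. Susd4, a membrane regulator, was at 0.84 ± 0.22 and Clu, the gene of clusterin, at -0.08 ± 0.20. Among the proteases and substrates, C1ra and C1rl, which lie beside C1s1 on its chromosome, differed by 0.25 ± 0.21 and 0.24 ± 0.22, C4b by 0.23 ± 0.30 and Cfp, the gene of properdin, by -0.13 ± 0.20. C4b and C4a are near-identical, so the C4b probe may read both. Of the 7 terminal genes, Hc (C5), C6 and C8g were measured, at 0.12 ± 0.37, 0.03 ± 0.35 and -0.59 ± 0.21. Of the 10 receptor genes, 5 were measured, between -0.58 for Cd93 and 0.59 for Cr2. The second Cr2 probe, with signals of 17.9 and 21.1, differed by only 0.03 ± 0.33. With normexp background correction and quantile normalization, Serping1 and Colec12 were within 2-fold, at -0.71 and -0.79, and 0 of the 22 genes were at least 2-fold lower.

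**Figure D4:**
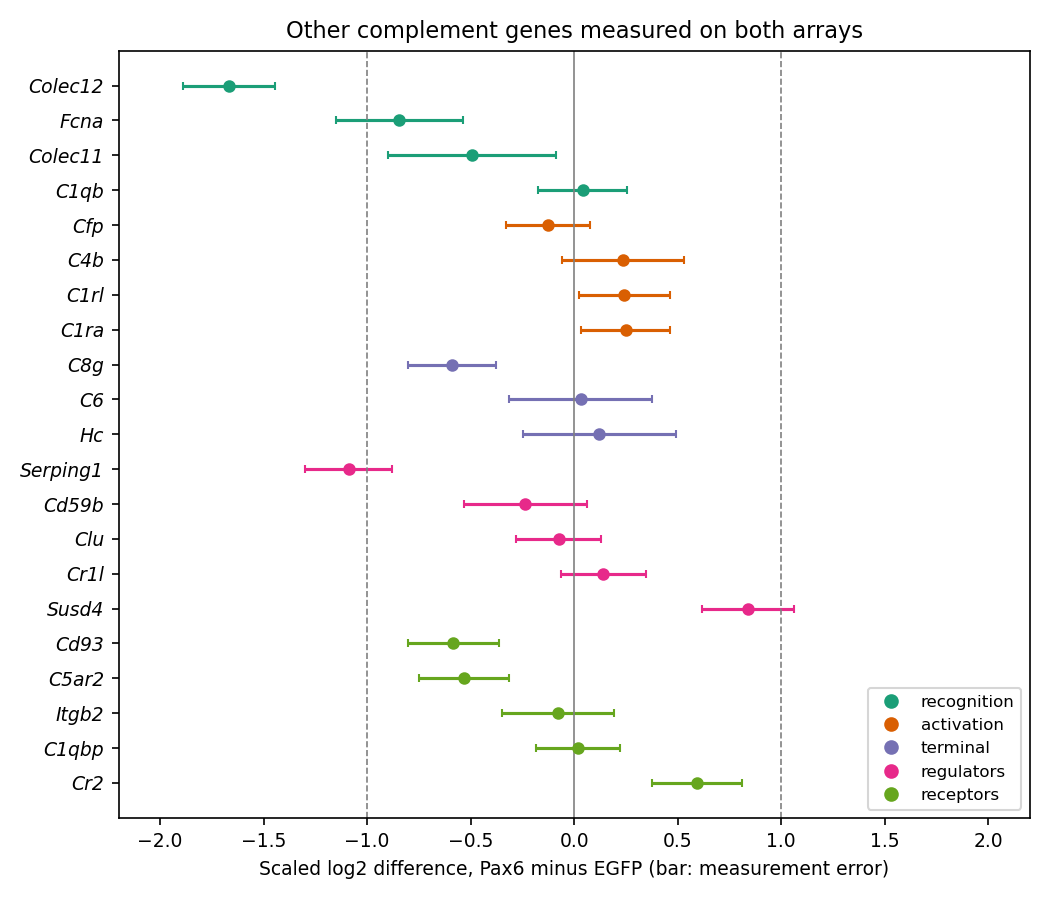
Log2 differences (Pax6 minus EGFP, scaled) of 21 other complement genes measured on both arrays, coloured by role, with the measurement error as bars and dashed lines at 2-fold. Colec12 at -1.67 and Serping1 at -1.09 lie beyond the dashed line on the left, and none lies beyond the one on the right.

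The genes whose difference was closest to that of Masp1 were Nckap1l, an actin regulator of blood cells (3.37), Lrrc17 (3.26), Enpp1, an ectoenzyme that makes pyrophosphate (3.57), Itga1, an integrin that binds collagen (3.20), and Entpd1, an ectoenzyme that breaks down ATP (3.66). With 2 arrays a likeness is only the gap between 2 differences, here 0.02 to 0.27. Around Masp1 on its chromosome, in the gene order of RefSeq (GRCm38.p6), Rtp4 and St6gal1 were measured, with differences of 0.76 ± 0.20 and 0.64 ± 0.20. Rtp1 and Sst, the other near neighbours, stayed within background on both arrays. The neighbours measured were thus higher on the Pax6 array too, but by less than 2-fold.

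Levels in RNA of whole cultures do not tell fewer cells of a type from less RNA per cell. All 8 neural progenitor markers were well above background on both arrays. Of them Sox2 was higher with Pax6 by 2-fold or more (1.74), Nes and Slc1a3 were lower by as much (-1.66 and -3.69), and Pax6 itself, also on the list, was within 2-fold. Sox2 is one of the doxycycline-driven factors too, and no source says if its probe reads that transcript. The summed signal of the 8, as a multiple of the 75th percentile of each array, was 125 in the EGFP line and 133 in the Pax6 line. Vim made up most of it, so the sum says little about the other markers. Before scaling, Vim gave 99622 of 106903 in the EGFP line and 126293 of 131419 in the Pax6 line. Of 7 markers of the liver cells that make most complement, Alb, Ttr, Apoa1 and Fgb were on neither array above background, and Afp, Hnf4a and Ahsg were measured on both and within 2-fold. Ahsg was bright, at 2164 and 2076, and gave 2.53 of the summed 2.64 in the EGFP line and 2.10 of 2.21 in the Pax6 line. Of 9 microglia and macrophage markers only Cd68 and Fcer1g were above background, at -0.52 and 0.05, and Aif1, Csf1r, Cx3cr1, Ptprc and Tyrobp were not. They summed to 0.57 and 0.46. Fibroblast markers did differ, and in both directions. All 8 were above background on at least 1 array, 4 were higher with Pax6 by 2-fold or more (Dcn, Col3a1, Pdgfra and Fap) and 2 lower by as much (Col1a1 and Thy1). Their summed signal on that scale was 4.66 in the EGFP line and 16.3 in the Pax6 line. Col3a1 alone made up 3.69 and 14.0 of it, and the other markers summed to 0.97 and 2.33. Fat cell markers, relevant to Cfd, were 2 of 5 above background, with Fabp4 at 1.54, Retn at a bound of 0.01 and Adipoq, Plin1 and Lep on neither array, and their summed signal was 0.08 and 0.17. Endothelial markers summed to 0.06 on both arrays. Of the 6, 3 were above background on at least 1 array (Kdr only at a bound of 0), and 0 passed 2-fold. Astrocyte markers summed to 2.56 and 3.17. Of the 6, 5 were above background on at least 1 array (Gfap only at a bound of 0.01). Among these, 1 passed 2-fold, Aqp4 (at least 3.86-fold higher). The part of fibroblast-like or other cells in the Masp1 difference was not tested.

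The sizes of the differences depended on the processing more than their directions did. Masp1 stayed at least 2-fold higher in all 11 alternatives that give it a value, between 1.99 and 3.48. Among them, the series table, the background filters and keeping outlier spots left its value of 3.40 unchanged. The scalings and normalizations of the processed signal gave it 3.41 to 3.48. The 3 that moved it further than its error were normexp background correction, at 2.67, and the mean and median of its 4 probes, at 2.25 and 1.99, which include probes in the range of background. Masp2 stayed between 0.04 and 0.36, C1s between 0.06 and 0.67, C3 between -0.50 and -0.07 and Cd59a between -0.27 and -0.17. The 0.67 of C1s and the -0.50 of C3 arose only where their dim probes were averaged in. The C1s value is a lower bound in the main setting and in the alternatives, except without the filter on dim probes and where its probes were averaged. C2 ranged from -0.32 to 0.06, with values above 0 only where its dim probe was averaged in.

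**Figure D5:**
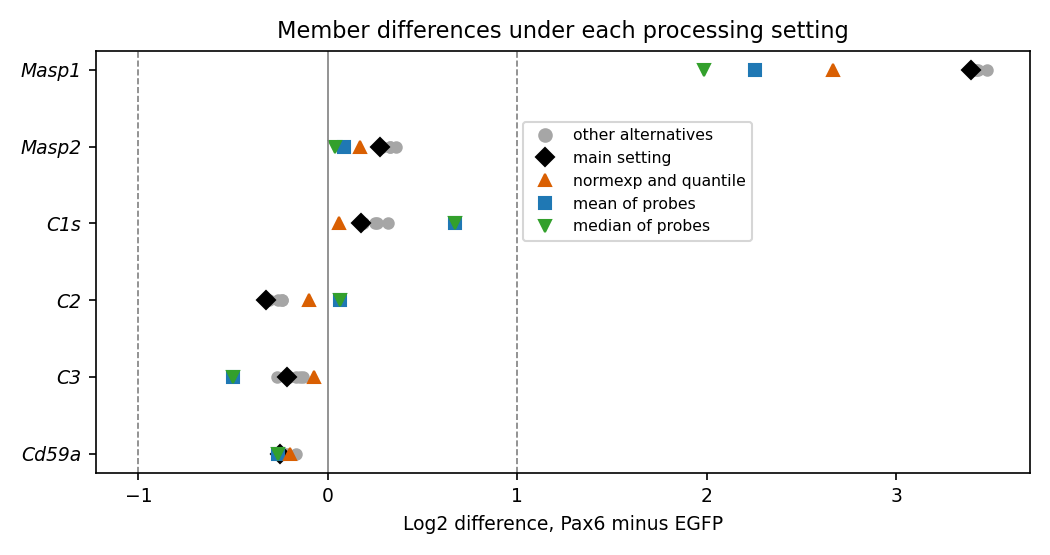
Log2 differences (Pax6 minus EGFP) of the 6 members with a value under the main setting (diamonds), normexp with quantile normalization (triangles pointing up), the mean (squares) and median (triangles pointing down) of a gene's probes, and the other alternatives (grey), with dashed lines at 2-fold. Every symbol of Masp1 lies right of the line at 2-fold, from 1.99 to 3.48, and every symbol of the other 5 genes lies between the lines. Those of C1s are lower bounds, except without the filter on dim probes and where its probes were averaged.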

How the data were processed

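Total RNA of the EGFP and Pax6 lines, labelled with Cy3, was hybridised to 1 array each, per the labels' protocols. The authors' files hold processed signal intensity from Agilent Feature Extraction 10.7.3.1, background-subtracted and detrended within each array and not normalized between arrays, per the file headers, with flags for spots at least 13.0 background SDs above background. Intensity values in the deposited series table were equal to these. From these, 96 outlier spots of 43379 were left out, log2 signals were scaled by the 75th percentile, spots of a probe were averaged, and a gene took its brightest probe. A probe above background on 1 array gave a lower bound against the lowest signal above background on the other (10.3 with EGFP, 9.30 with Pax6) or its own if higher. Such a bound does not include the measurement error. Accessions named 22951 of 41168 probes through RefSeq, and the array's names were kept otherwise. The software's error has a multiplicative part of 10.0%. The median error of a difference was 0.20, the median SD over replicate spots of 245 probes was 0.14, and 8 spike-ins differed by -0.05 to 0.09.

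Members and lists were chosen with earlier results of these data known. Named were all 9 members, other complement genes above background and the 5 genes closest to Masp1 in difference. One of the other complement genes enters the counts but is not reported here. Fold changes were counted by size only, at 2-fold. Alternatives covered scaling (median, spike-ins), quantile normalization, cyclic loess and normexp with an offset of 50 (limma 3.58.1, R 4.3.3), the series table, other probe rules, filters, a 3-fold rule and a rule of 2 times the error. Keeping outlier spots was an alternative chosen after seeing the data. The pipeline was tested on simulated data with known changes.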

Additional observations from a re-analysis of the deposited data

How the results depend on the processing

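No paired analysis was possible because each group has 1 array. The count of members at least 2-fold different, 1 higher and 0 lower, held in all 13 alternatives. Masp1 was chosen on this difference, and several alternatives cannot change the value of its main probe, so the count remains a description. Masp1 moved by more than its error with normexp background correction and quantile normalization (2.67) and with the mean (2.25) and median (1.99) of its probes, and by less in the other 8. Of the other complement genes, 4 were at least 2-fold higher without a filter on dim probes in place of 0, and 1 at 3-fold and 0 with normexp were lower in place of 2. Over all genes 454 were higher and 466 lower (49.3% higher). The split was 541 and 367 (59.6%) after scaling by the median, 176 and 109 (61.8%) with normexp, 165 and 103 (61.6%) at 3-fold, and 1308 and 1231 without the filter. Dim signals limit Cfb, Cfd, Cd46 and the RefSeq probes of Masp1, for which no difference could be measured.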

Other observations

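The C1qtnf, C1ql and Cbln genes encode proteins with a C1q-like domain outside the complement cascade. They were chosen after their values were seen, and other genes with such a domain were not included. Under these names 16 genes were on the array, of which 10 were measured on both arrays. Cbln1, a cerebellin that organises synapses, was 2.46-fold higher on the Pax6 array (1.30 ± 0.21, signals of 96.4 and 275), and its relative Cbln2 was 3.60-fold lower (-1.85 ± 0.21, signals of 211 and 68.0). C1qtnf1, a secreted relative of adiponectin, was 2.24-fold higher (1.16 ± 0.21, signals of 50.2 and 130). C1qtnf4 was at 0.76 ± 0.21, C1ql3 at 0.32 ± 0.20 and the other 5 between -0.02 and 0.09. The median of the 10 was 0.08.

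A probe for the expressed sequence AA733629 lies on the opposite strand, at chromosome 17, 55414616 to 55414675 (mm7). It overlaps only the end of the main C3 probe. The AA733629 probe read 5.63 on the EGFP array, not well above background, and 14.7 on the Pax6 array, at least 1.23-fold higher. The C3 probe itself differed by -0.22.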
